A study of Homo sapiens with 4 samples.

Results

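The genes described here are the chemokines and chemokine receptors, taken by symbol from the annotation of the array (ligands named CCL, CXCL, XCL or CX3CL, and receptors named CCR, CXCR, XCR, CX3CR, ACKR or CCRL). There were 58 such genes with a probe set of their own, 36 chemokines and 22 receptors, of 19775 genes in all, and 89 probe sets read them. Expression was measured in U937 cells, a human leukemia line of the monocytic lineage, on 4 Affymetrix HG-U133 Plus 2.0 arrays. U937-AE is 1 clone that carries HA-tagged AML1/ETO, the fusion protein of the 8;21 translocation, behind the mouse metallothionein promoter in the vector pSG-MtNEO, and U937-Mt is a bulk population carrying the vector without insert. Both lines were kept in 100 µM ZnSO4 for 8 hours, which turns the promoter on. For each line 1 pool of RNA from 3 extractions was read on 2 copies of the array, so the spread between copies covers hybridization only, no test across the lines was possible, and AML1/ETO and the choice of clone cannot be told apart.

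Chemokines are small secreted proteins that guide the movement of leukocytes through G protein-coupled receptors. Inflammatory chemokines are switched on at sites of infection by NF-kappaB and interferon signals, whereas homeostatic ones place cells in marrow and lymphoid tissue. Atypical receptors bind chemokines without coupling to G proteins and clear them. Monocytic cells make several of the inflammatory ligands and follow gradients of others.

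The trimmed mean of the arrays was equal, 500.1 on each, but the median was lower in U937-AE (119.5 and 129.7) than in U937-Mt (146.8 and 153.6). That median served as a floor, and lower values were set to it ahead of the log2 step, so a probe set below it on all arrays has a difference of -0.27 by construction. Arrays correlated at 0.935 within U937-AE, at 0.919 within U937-Mt and at 0.910 to 0.916 across the lines (Pearson's r of log2 signal over all probe sets except controls). Probe set 216831_s_at of RUNX1T1, the gene of ETO, read 1361.5 and 1299.0 with U937-AE RNA and 8.6 and 7.6 with U937-Mt RNA. Its 6 other probe sets showed no such gap: 5 stayed under the floor throughout, and 216832_at read 181.9 and 95.5 with U937-AE RNA and 276.6 and 121.2 with U937-Mt RNA. Which of them lie in the cloned part of ETO was not examined. Of 9 monocytic and myeloid markers, 7 had a probe set of their own and their summed signal was 3506.9 to 4065.7 in U937-AE against 18936.2 to 20639.2 in U937-Mt. Most of the U937-Mt sum was MPO, without which the sums were 1949.0 to 2167.7 for U937-AE and 4345.4 to 4522.5 for U937-Mt. CD14 and FCGR1A were below the floor on every array, while LYZ, ITGAM, MPO and SPI1 were called lower in U937-AE. The part of this shift in the results on chemokines was not tested. T cell markers summed to 317.4 to 483.4 for U937-AE and to 452.4 to 509.6 for U937-Mt, and the 3 CD3 chains were below the floor. Of the T cell, B cell, NK, erythroid, platelet and fibroblast or endothelial markers, NKG7 was the only one called, lower in U937-AE.

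Of the 58 genes, 22 reached the floor in at least 1 line (mean log2 signal of the 2 copies against the mean floor) and are called measured, 11 of them chemokines and 11 receptors. In both lines 16 did so, CXCL11 and CCRL2 only in U937-AE, and ACKR5, CCL7, CCR9 and CX3CL1 only in U937-Mt. A gene was called where each U937-AE array differed from each U937-Mt array by more than 1.5-fold, always the same way. By this rule 2 of the 22 were higher in U937-AE, where 2.60% of 12934 measured genes were, and 3 were lower, where 6.12% were. Both higher genes were chemokines and all 3 lower ones were receptors. Other settings did not always keep this split. The chemokine CXCL2 was called lower in some of them, and the chemokine CCL7 with no floor or one at the 25th percentile. The median log2 difference of the 22 was -0.27, against -0.10 for all measured genes, and -0.27 is also what the floors alone give. When the arrays were given the same median, the shares of all genes became 7.04% higher and 2.99% lower and the median of all genes moved to 0.17. Scaling to 18 probe sets of spike-ins, bacterial and phage controls added before hybridization, gave 10.6% and 2.24% and a median of 0.25. Under both of these settings CXCL8 and CXCL10 were still called higher and CXCR4 and CX3CR1 lower, but CCR1 was no longer called. Fewer messages per cell and fewer expressing cells cannot be told apart in these bulk samples.

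**Figure D1:**
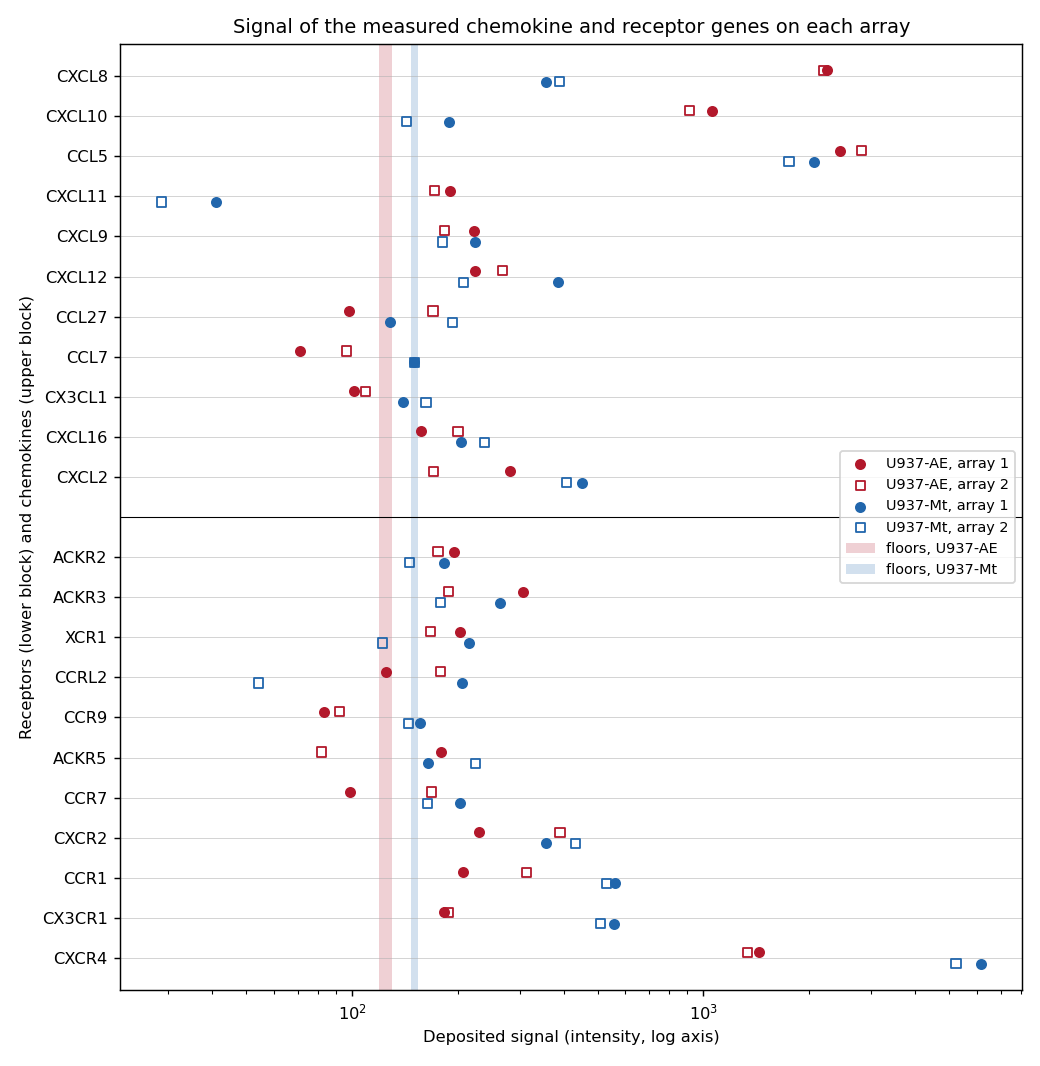
Deposited signal (log axis) of the 22 measured genes on each of the 4 arrays, U937-AE in red above U937-Mt in blue, with chemokines in the upper block and receptors in the lower. Shaded bands span the floors of each line's arrays. CXCL8, CXCL10, CXCR4, CX3CR1 and CCR1, the called genes, show a gap between the lines. CXCL11 shows one too, with both U937-Mt values below the floor. CXCL2, CCL5, CCL7, CCR9, CXCL16 and CX3CL1 do not overlap either. Most of the uncalled genes lie between 100 and 500.

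CXCL8 and CXCL10, a neutrophil and a lymphocyte attractant, were the 2 chemokines called higher in U937-AE cells. CXCL8, interleukin 8, acts on neutrophils through CXCR1 and CXCR2. Its brighter probe set 202859_x_at had signals of 2251.8 and 2194.8 for U937-AE, against 356.5 and 390.0 for U937-Mt. Both U937-AE arrays lay far above both U937-Mt arrays. U937-AE exceeded U937-Mt 5.96-fold (single comparisons gave 5.63 to 6.32), a log2 difference of 2.58 ± 0.08 (SD of the 4 comparisons, which share arrays and are not independent). The other probe set, 211506_s_at, gave 449.2 and 548.6 on the U937-AE arrays, compared with 155.6 and 186.6 for U937-Mt, a 2.91-fold difference in the same direction. Suffixes _x_at and _s_at mark probe sets that can match more than 1 transcript, and both probe sets of CXCL8 are of this kind.

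CXCL10, an interferon-induced ligand of CXCR3, was read by 204533_at alone. On the U937-AE arrays it gave 1056.8 and 913.8, compared with 189.2 and 143.2 for U937-Mt, and the second U937-Mt array was below its floor. The arrays did not overlap. The difference was 5.76-fold (4.83 to 6.88 over the 4 comparisons), or 2.53 ± 0.21 on the log2 scale, with 1 of 2 U937-Mt values set by the floor. With a floor at the 75th percentile the log2 difference was 0.99.

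CXCR4, CX3CR1 and CCR1, receptors that guide monocytes and progenitor cells, had lower signal in U937-AE. CXCR4 binds CXCL12 and holds blood progenitors in the marrow. Probe set 217028_at read 1437.1 and 1335.8 with U937-AE RNA and 6178.5 and 5229.1 with U937-Mt RNA. The log2 difference was -2.04 ± 0.15, which is 4.10-fold lower (single comparisons gave 3.64 to 4.63). Its 2 other probe sets were lower as well. For 209201_x_at, U937-AE arrays gave 1022.9 and 997.2 and U937-Mt arrays 2697.8 and 2849.1, a 2.75-fold difference. For 211919_s_at, U937-AE arrays gave 1174.7 and 1448.9 and U937-Mt arrays 3900.0 and 3681.7, a 2.90-fold difference. All 3 probe sets kept the lines apart, and the size of the difference depended on the probe set.

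CX3CR1 is the receptor of fractalkine and marks patrolling monocytes. With 205898_at it had signals of 182.2 and 188.4 for U937-AE, against 555.3 and 508.5 for U937-Mt, a difference of -1.52 ± 0.08 on the log2 scale (2.87-fold lower, 2.70 to 3.05 over the 4 comparisons). The U937-AE values lay closely together, not far above the floor. A second probe set, 1568934_at, was below the floor on all 4 arrays. With a floor at the 75th percentile CX3CR1 was no longer called, at -0.20.

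CCR1 is a monocyte receptor for inflammatory CC chemokines such as CCL3 and CCL5. Probe set 205098_at gave 207.3 and 313.9 on the U937-AE arrays, compared with 561.0 and 530.0 for U937-Mt, and the 2 U937-AE copies differed from each other by more than those of U937-Mt. Its log2 difference was -1.10 ± 0.35 (2.14-fold lower, 1.69 to 2.71 over the 4 comparisons). The dimmer 205099_s_at read 146.2 and 162.5 with U937-AE RNA and 422.8 and 375.3 with U937-Mt RNA. That was 2.58-fold lower (2.31 to 2.89 over the 4 comparisons), above 2-fold in each. The call of 205098_at was lost with equal medians (-0.83), with spike-in scaling (-0.75), with a floor at the 75th percentile (-0.24) and with a threshold of 2-fold. The scalings and that floor were not applied to 205099_s_at by itself.

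Over all 89 probe sets, 30 were measured, of which 3 were higher and 6 lower in U937-AE. These are the 2 of CXCL8 and the 1 of CXCL10, and the 3 of CXCR4, the 2 of CCR1 and the 1 of CX3CR1. Among 23499 measured probe sets of 1 gene, 2.66% were higher and 5.37% lower. Probe sets of 1 gene are not independent measurements. Another 5 probe sets match several genes, at least 1 of them a chemokine or receptor, and none of the 5 was called. The 1 that reads CCL3, CCL3L1 and CCL3L3 had signals of 92.1 and 155.0 for U937-AE, against 161.0 and 199.9 for U937-Mt.

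To show what the upstream sequence of the 5 called genes holds, the 250 bases before the transcription start are given from RefSeq (GRCh38.p14), 5′ to 3′ on the strand of the gene. Capitals mark matches, on either strand, to the AML1 core (TGTGGT or TGCGGT), to an NF-kappaB motif (GGNNTTTCC) or to the core bound by interferon regulatory factors (AANNGAAA), which did not overlap. The regions are chr4:73740319-73740568 on the plus strand for CXCL8 and, on the minus strand, chr4:76023498-76023747 for CXCL10, chr2:136118150-136118399 for CXCR4, chr3:39281736-39281985 for CX3CR1 and chr3:46208314-46208563 for CCR1. For CXCR4 and CX3CR1, with 3 starts each in the table, the outermost was taken.
CXCL8: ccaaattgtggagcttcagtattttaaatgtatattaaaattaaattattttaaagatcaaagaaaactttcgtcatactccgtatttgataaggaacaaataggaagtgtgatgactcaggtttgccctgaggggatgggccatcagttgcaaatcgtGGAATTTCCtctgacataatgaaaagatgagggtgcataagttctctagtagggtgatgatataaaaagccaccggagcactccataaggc
CXCL10: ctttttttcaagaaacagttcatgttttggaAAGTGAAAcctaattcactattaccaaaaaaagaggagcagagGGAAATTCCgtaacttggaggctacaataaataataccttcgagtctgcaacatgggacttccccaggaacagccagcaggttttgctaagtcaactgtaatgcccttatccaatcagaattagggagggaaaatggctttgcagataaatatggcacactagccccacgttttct
CXCR4: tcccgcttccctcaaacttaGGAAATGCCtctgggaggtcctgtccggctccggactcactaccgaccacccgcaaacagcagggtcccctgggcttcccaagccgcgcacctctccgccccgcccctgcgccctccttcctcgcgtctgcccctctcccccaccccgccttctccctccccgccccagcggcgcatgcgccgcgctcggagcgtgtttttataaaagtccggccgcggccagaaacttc
CX3CR1: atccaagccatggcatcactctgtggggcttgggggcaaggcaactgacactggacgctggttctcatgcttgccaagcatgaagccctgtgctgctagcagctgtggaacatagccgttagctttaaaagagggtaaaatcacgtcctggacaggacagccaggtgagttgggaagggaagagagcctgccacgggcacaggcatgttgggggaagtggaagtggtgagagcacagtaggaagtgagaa
CCR1: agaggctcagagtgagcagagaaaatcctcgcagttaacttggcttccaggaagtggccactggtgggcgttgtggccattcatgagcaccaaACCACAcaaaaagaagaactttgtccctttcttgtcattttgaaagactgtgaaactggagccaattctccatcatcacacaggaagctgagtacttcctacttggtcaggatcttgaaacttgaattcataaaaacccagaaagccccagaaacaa

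The CXCL8 sequence holds an NF-kappaB match at -91 to -83 from the start, and CXCL10 holds one at -176 to -168 and the interferon regulatory factor core at -219 to -212. CXCR4 has an NF-kappaB match at -230 to -222, CCR1 has the AML1 core at -157 to -152 on the opposite strand, and CX3CR1 has no match to any of the 3 in this window. Of 27305 genes with such a sequence, 16.3% held the AML1 core, 5.49% the NF-kappaB motif and 20.6% the interferon regulatory factor core. Of the 58 chemokine and receptor genes 41 had a sequence in the table, of which 11 held the AML1 core, 11 the NF-kappaB motif and 10 the interferon regulatory factor core. A match of letters is not a site that was shown to be bound.

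Among the other ligands of CXCR2, CXCL2 had lower signals in U937-AE without meeting the rule. Probe set 209774_x_at gave 281.8 and 170.4 on the U937-AE arrays, compared with 452.5 and 407.9 for U937-Mt. The arrays did not overlap, but 1 of the 4 comparisons was below 1.5-fold (1.45-fold), and the log2 difference was -0.97 ± 0.43. Without the first U937-AE array or the second U937-Mt array CXCL2 was called lower, at -1.33 and -1.05. Its 2 other probe sets were below the floor. The suffix of 209774_x_at marks a probe set that can match more than 1 transcript. Without _x_at and _s_at probe sets CXCL2 was at -0.27, the value that the floors alone give. CXCL1, CXCL3, CXCL5 and CXCL6, the remaining attractants of this type under the naming rule, were below the floor in both lines.

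CXCL9 and CXCL11 share the receptor CXCR3 with CXCL10. CXCL9 read 222.8 and 183.5 with U937-AE RNA and 223.3 and 181.1 with U937-Mt RNA, and the lines overlapped. CXCL11 had signals of 190.0 and 171.3 for U937-AE, against 41.1 and 28.7 for U937-Mt. Its arrays were well apart, but both U937-Mt values were below the floor, so the difference was at least 1.20-fold, with higher signal in U937-AE, and CXCL11 was not called. It was called where the floor was left out or set at the 25th percentile, at 2.39 and 1.96. Its second probe set, 210163_at, was below the floor on all 4 arrays. CXCR3 itself was not measured. Its probe set 217119_s_at was above the floor on 1 U937-AE array, at 170.8, and its probe set 207681_at on the second U937-Mt array, at 203.1.

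CCL5, RANTES, is a ligand of CCR1 and was well above the floor on every array. It gave 2439.8 and 2821.3 on the U937-AE arrays, compared with 2062.7 and 1752.2 for U937-Mt with 1555759_a_at. The lines did not overlap, yet the difference of 0.46 ± 0.18 on the log2 scale (1.38-fold) stayed under the threshold in some comparisons. Its 2 other probe sets gave 0.40 and 0.31, and CCL5 was called higher only with spike-in scaling, at 0.81. CCL7, a ligand of CCR2, read 71.0 and 96.4 with U937-AE RNA and 149.8 and 150.8 with U937-Mt RNA. Both U937-AE values and the second U937-Mt value were below the floor. CCL7 was called lower only where the floor was left out or set at the 25th percentile, at -0.86 in both cases. CCL2, CCL4 and CCL8 were not measured, with 1 value above its floor, 190.4 for CCL2 on the second U937-Mt array.

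The homeostatic and tissue-bound chemokines showed no call. CXCL12, the ligand of CXCR4, had signals of 224.1 and 268.0 for U937-AE, against 386.5 and 207.2 for U937-Mt, and the 2 U937-Mt copies enclosed both U937-AE values. CXCL16, a membrane-bound ligand of CXCR6, gave 157.3 and 200.3 on the U937-AE arrays, compared with 204.5 and 237.9 for U937-Mt, a log2 difference of -0.31 ± 0.24 with no overlap. That difference was -0.04 with equal medians, 0.03 with spike-in scaling and -0.08 with quantile normalization. CX3CL1, the ligand of CX3CR1, read 101.4 and 109.1 with U937-AE RNA and 139.6 and 162.4 with U937-Mt RNA, and only 1 of these values was above its floor. CCL27, a skin chemokine, had signals of 98.3 and 169.9 for U937-AE, against 128.1 and 193.6 for U937-Mt, with copies further apart than the lines.

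Of the other receptors, CXCR2, which binds CXCL8, gave 230.4 and 390.8 on the U937-AE arrays, compared with 355.9 and 431.7 for U937-Mt. The lines overlapped, with a log2 difference of -0.39 ± 0.47, and CXCR2 was called lower only without the second U937-AE array (-0.77). CCR7, a receptor for homing to lymph nodes, read 98.9 and 168.7 with U937-AE RNA and 202.4 and 163.8 with U937-Mt RNA and overlapped too. CCR9, a receptor for homing to the gut, had signals of 83.3 and 92.1 for U937-AE, against 156.5 and 144.6 for U937-Mt. Both U937-AE values and the second U937-Mt value were below the floor, and CCR9 was called lower only where the floor was left out or set at the 25th percentile, at -0.78 in both cases. XCR1, known from dendritic cells, gave 203.4 and 167.6 on the U937-AE arrays, compared with 215.9 and 121.9 for U937-Mt, again with overlap.

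None of the 4 measured atypical receptors was called. ACKR3, a second receptor of CXCL12, read 305.9 and 188.5 with U937-AE RNA and 264.1 and 179.0 with U937-Mt RNA. ACKR2, a scavenger of inflammatory CC chemokines, had signals of 195.5 and 175.6 for U937-AE, against 182.6 and 145.4 for U937-Mt. ACKR5 gave 179.6 and 82.0 on the U937-AE arrays, compared with 164.5 and 224.2 for U937-Mt, and CCRL2, which binds chemerin, read 124.8 and 178.3 with U937-AE RNA and 206.1 and 54.3 with U937-Mt RNA. In each of these 4 genes the 2 lines overlapped.

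**Figure D2:**
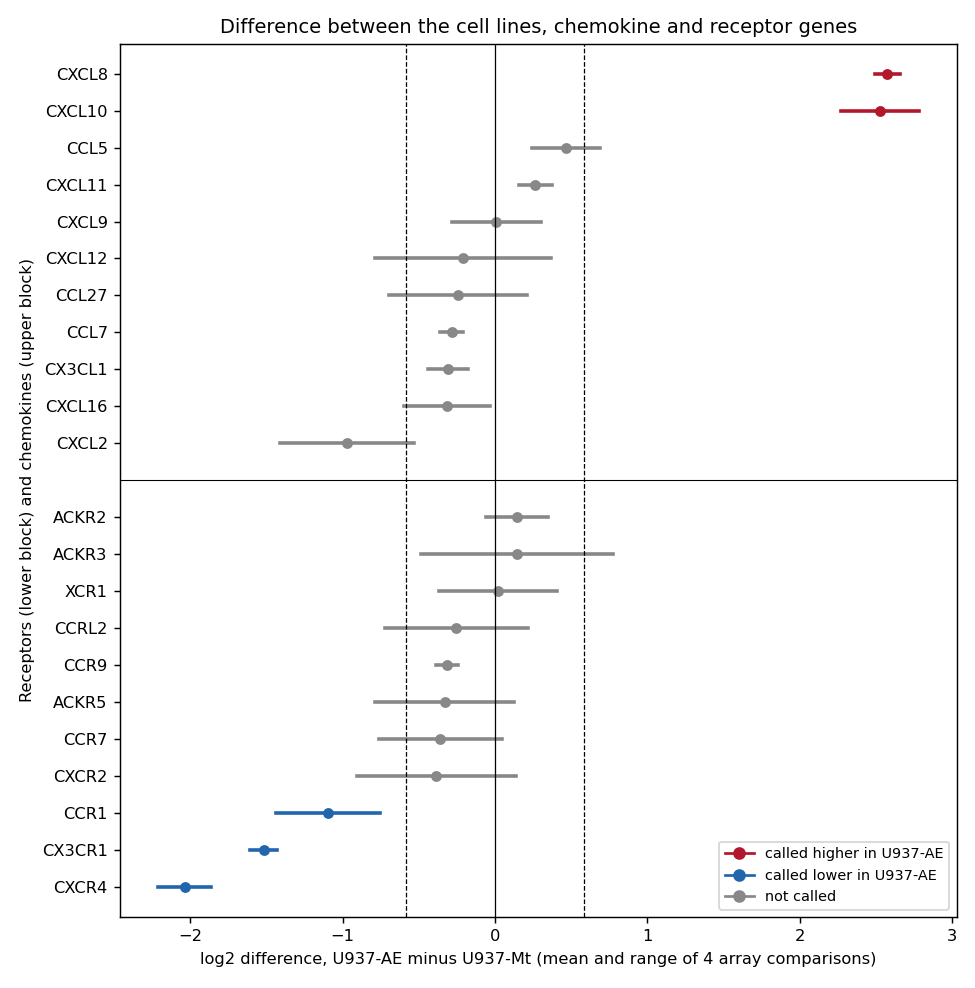
The log2 difference, U937-AE minus U937-Mt, of the 22 measured genes, as the mean (point) and range (line) of the 4 comparisons of single arrays; dashed lines mark 1.5-fold. The ranges of CXCL8 and CXCL10 lie wholly to the right of the dashed lines and those of CXCR4, CX3CR1 and CCR1 wholly to the left.

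Without a threshold, and on the deposited signals before the floor, both U937-AE arrays were above both U937-Mt arrays in 4 of the 22 genes. They were below them in 8, and the other 10 overlapped. Of all measured genes, 26.3% were above and 37.1% below. CXCL11, among those above, counted as measured only through U937-AE. CCL7, CCR9 and CX3CL1, among those below, did so only through U937-Mt. For these genes the filter itself favoured the direction. After values were raised to the floor, array copies differed by more than 1.5-fold in 4 of the 22 genes in U937-AE and in 1 in U937-Mt. The shares over all measured genes were 7.35% and 8.88%. Copies with a value below the floor can lie further apart in the deposited signals.

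The 36 genes whose mean was below the floor in both lines were CCL1, CCL2, CCL4, CCL8, CCL11, CCL16 to CCL26, CCL28, CXCL1, CXCL3, CXCL5, CXCL6, CXCL13, CXCL14, CXCL17 and XCL1 among the chemokines. Among the receptors they were CCR2, CCR4, CCR6, CCR8, CCR10, CXCR1, CXCR3, CXCR5, CXCR6, ACKR1 and ACKR4. Of these, 32 were below it on all 4 arrays, while CCL2, CXCR3 and XCL1 were above it on 1 array and CCL28 on 1 array of each line. No difference could be read for them at this signal. CCR3 was not analysed here.

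**Figure D3:**
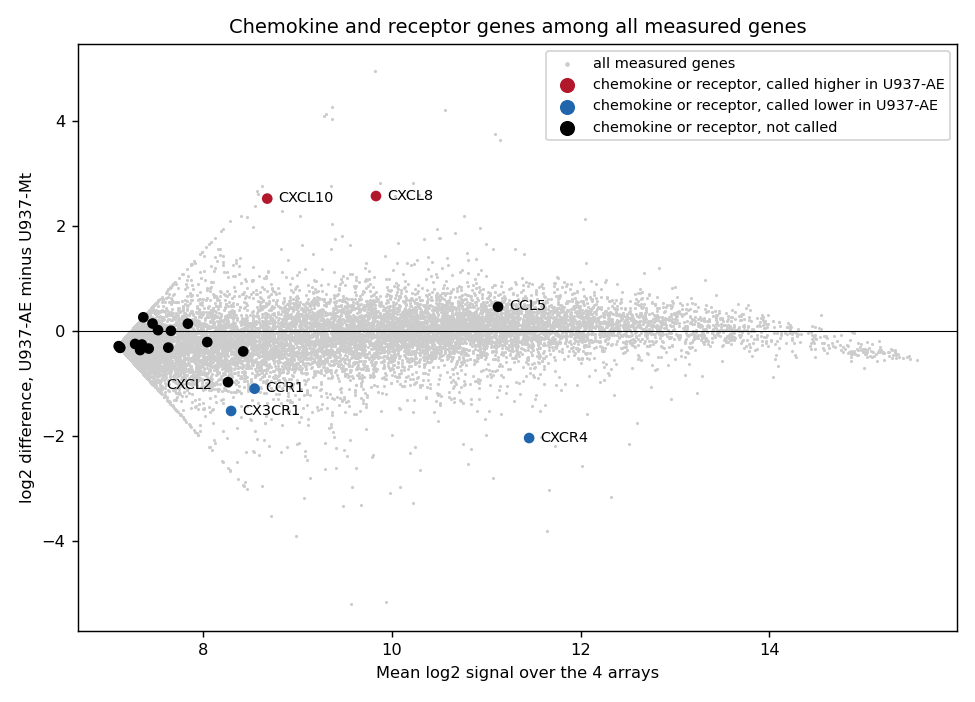
The log2 difference (U937-AE minus U937-Mt) of all 12934 measured genes against their mean log2 signal over the 4 arrays, with called chemokine and receptor genes in red (higher) and blue (lower) and the others in black. Most of the 22 lie at the dim end, and CXCR4 and CCL5 are bright. The slanting edges at low signal are made by the floor.

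In none of the pairs of ligand and receptor set side by side here were both called. CXCL8 was higher in U937-AE, while CXCR2 was not called and CXCR1 was below the floor. CXCR4 was lower, while CXCL12 was not called. CCR1 and CX3CR1 were lower, while CCL5 and CX3CL1 were not called. Levels of different genes were not compared, because probe sets differ in brightness.

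Many of these genes lie in clusters, and the measured genes within each run given here did not all have the same call. On chromosome 4, the run of 9 protein-coding genes from CXCL8 to CXCL2 held 2 measured genes, of which CXCL8 was higher and CXCL2 not called. The rest of this run lies between them, was not measured and shows nothing on this point. The run of 4 from CXCL9 to CXCL11 on the same chromosome held 3 measured genes, of which CXCL10 was higher. CXCL11 was not called with both U937-Mt values set by the floor, but was called higher without a floor (2.39).

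Genes that act below chemokine receptors were read from a list of 22, of which 20 were measured, none higher and 4 lower in U937-AE, where 2.60% of all measured genes were higher and 6.12% lower. The list was chosen with earlier results of these data known, so its share is a description only. GRK2, a kinase that switches off activated receptors, had signals of 1579.3 and 1747.7 for U937-AE, against 3756.6 and 3096.9 for U937-Mt (log2 difference -1.04). PREX1, which activates Rac below G protein subunits, gave 383.5 and 274.9 on the U937-AE arrays, compared with 652.9 and 671.4 for U937-Mt (-1.03). RGS2, a brake on G protein signals, read 130.7 and 169.9 with U937-AE RNA and 283.2 and 309.0 with U937-Mt RNA (-0.99). RAC2, the Rac of blood cells, had signals of 6441.3 and 6727.7 for U937-AE, against 12124.0 and 11483.6 for U937-Mt (-0.84). In all 4 the lines were apart, and 2 of them, GRK2 and RGS2, dampen receptor signals. The other 16 measured genes of the list were not called, with log2 differences from -1.19 (PLCB2) to 0.31 (WAS). PIK3R5 (-0.98) and GRK6 (-0.665) were among them, as were the G protein subunits GNAI2 (-0.23), GNB1 (0.29) and GNG2 (0.27). The median of the 20 was -0.14. The same 4 were called lower with quantile normalization (median -0.21). With equal medians or spike-in scaling none of the 20 was called, where 2.99% and 2.24% of all genes were lower, and the median was 0.13 and 0.21.

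Of 8 NF-kappaB response genes, 6 were measured, none higher and 3 lower, beside 6.12% of all measured genes, with a median of -0.65 against -0.10 for all genes. The lists of this paragraph were likewise chosen with earlier results known, and their shares are descriptions only. NFKBIA, the inhibitor that holds NF-kappaB in the cytoplasm, gave 598.4 and 522.2 on the U937-AE arrays, compared with 1628.7 and 1570.2 for U937-Mt (-1.52). TNFAIP3, another brake on the pathway, read 1024.1 and 893.8 with U937-AE RNA and 2051.7 and 2331.3 with U937-Mt RNA (-1.19), and the cytokine IL1B had signals of 459.1 and 557.2 for U937-AE, against 974.8 and 907.3 for U937-Mt (-0.89). ICAM1 (0.01), NFKB1 (-0.03) and NFKB2 (-0.40) were not called. NFKBIA, TNFAIP3 and IL1B were lower where CXCL8 was higher, and a link between these genes and CXCL8 was not tested. NFKBIA, TNFAIP3 and IL1B were also called lower with quantile normalization. NFKBIA and TNFAIP3 were still called lower with equal medians and with spike-in scaling, and IL1B was not, and the median of the 6 was -0.38 and -0.30. Of 9 interferon-stimulated genes, 8 were measured and 1 was called, higher, beside 2.60% of all measured genes. That gene, IFIT3, gave 1226.1 and 1165.0 on the U937-AE arrays, compared with 596.0 and 607.3 for U937-Mt (0.99). IFIT1 was not called, with 348.9 and 377.1 for U937-AE and 137.8 and 233.6 for U937-Mt. OAS1, at 509.7 and 609.8 for U937-AE and 342.6 and 337.6 for U937-Mt, was not called either. The others, MX1 (-0.41), IRF7 (-0.33), IFIT2 (-0.18), ISG15 (-0.10) and IRF1 (-0.02), were not called, also under the settings named next. The median of the 8 was -0.06. IFIT1 and OAS1 were called higher, beside IFIT3, with quantile normalization, equal medians or spike-in scaling, where the median of the 8 was -0.01, 0.21 and 0.285. Of 10 other chemoattractant receptors 5 were measured and none was called (C3AR1, the C3a receptor, was higher with equal medians or spike-in scaling). Of 5 genes of chemokines or chemokine-like proteins outside the naming rule 2 were measured and none was called.

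**Figure D4:**
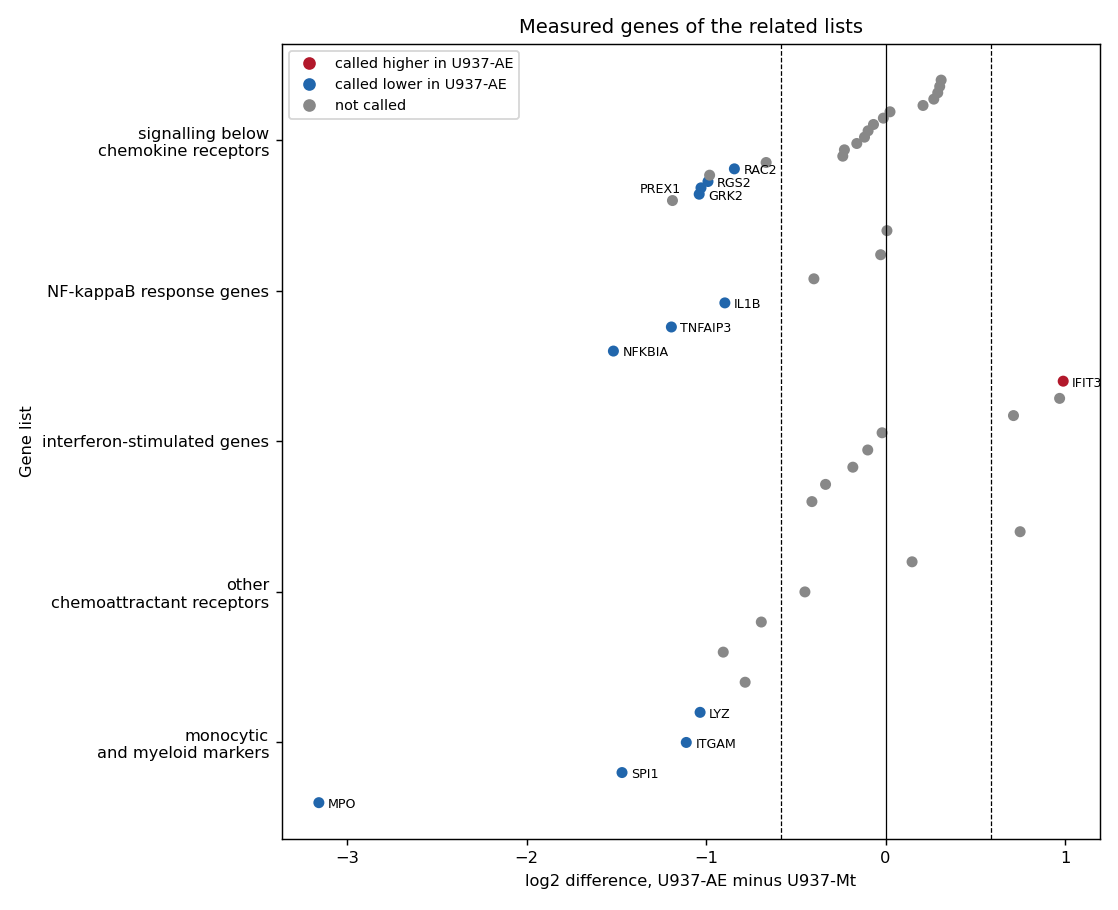
The log2 difference (U937-AE minus U937-Mt) of the measured genes in 5 related lists, one point per gene, red where called higher, blue where called lower and grey where not called; dashed lines mark 1.5-fold. The called genes of the signalling, NF-kappaB and myeloid lists lie to the left and IFIT3 to the right.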

How the data were processed

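There were 4 arrays, 2 copies for 1 RNA pool of each cell line. The authors deposited linear signal intensity values made with GCOS, which corrects the background and scales each array to a common trimmed mean. The sources used here give no version. The table held 54675 probe sets, 62 of them controls, and 0 further sample columns. In the platform annotation 41097 had 1 gene symbol, updated through gene identifiers, 1801 had several and 11777 had none. The number of arrays limits the precision.

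From the deposited intensity values, those below the 50th percentile of an array (controls left out) were raised to it and log2 was taken. The probe set that was brightest on average (mean log2 signal ahead of flooring) stood for its gene. It counts as measured where its mean log2 signal reached the mean floor in at least 1 line, and as called where all 4 array comparisons were above 1.5-fold in 1 direction. Every measured chemokine or receptor is named, with up to 4 called genes of each other list and some of the uncalled ones. Members and lists were chosen with earlier results of these data known. Alternatives were quantile normalization, equal medians, scaling to spike-ins, other floors, other thresholds, the methods' t-test, other choices of probe set, the replicate block and leaving out each array. Promoters came from RefSeq (GRCh38.p14), and gene order from the same annotation. Software was Python 3.11.15, pandas 2.3.3, numpy 2.4.6, matplotlib 3.10.9 and scipy 1.17.1.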

Additional observations from a re-analysis of the deposited data

How the results depend on the processing

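The directions of CXCL8, CXCL10, CXCR4, CX3CR1 and CCR1 were kept under every alternative that gave a value. Of the 2 genes called higher, 0 were left with the methods' t-test after Benjamini-Hochberg and a fold above 2, and 1 when _x_at and _s_at probe sets were dropped, because CXCL8 then has no probe set. Of the 3 genes called lower, 0 were left with the methods' t-test after Benjamini-Hochberg, which called 0 genes higher and 3 lower of 12934, and 1 with a floor at the 75th percentile. Without Benjamini-Hochberg the methods' t-test called 2 higher and 2 lower, CCR1 being lost. Their p-values cover array copies only. The count of lower genes was 5 with no floor and with a floor at the 25th percentile. With the replicate block (only arrays of the same number compared) 2 genes were higher and 4 lower, CXCL2 being the added one, and the median stayed at -0.27; the numbers name copies and pair nothing. The median of -0.27 moved to -0.01 with quantile normalization, 0.001 with arrays shifted to the same median, 0.074 with spike-in scaling, -0.10 with a floor at the 75th percentile and -0.067 with 1 common floor. Leaving out each array in turn gave 2 genes higher each time, 3 to 4 lower, and a median of -0.36 to -0.13. Over all measured genes, 336 were higher and 791 lower, against 911 and 387 with equal medians, 1369 and 290 with spike-in scaling, 240 and 373 with a floor at the 75th percentile and 186 and 580 with the mean of all probe sets. Levels near the floor limit what can be read for most of the 58 genes.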
